A study of Mus musculus with 4 samples.

Results

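The genes described here are 9 genes of calcium handling and electrical coupling, namely Kcnj5, Cacna1c, Atp2a2, Slc8a1, Jph2, Asph, Camk2d, Gja1 and Gjc1, out of 13192 genes in the deposited count table of mouse cardiac fibroblasts. They were chosen by name, as genes of the excitation and coupling machinery of heart muscle, with earlier results of these data known. Each of the 9 was found in the table and passed the filter on low counts. The cells were primary cardiac fibroblasts of wild-type neonatal mouse hearts (the tag P3 in the sample titles is unexplained). In 2 libraries the cells had received a short hairpin RNA against Nr4a3 (shNr4a3), and in 2 a hairpin matching no target (shNT), with collection at day 7 of treatment. A short hairpin RNA is cut by the cell into a small interfering RNA that lowers the matching transcript. Nr4a3 encodes an orphan nuclear receptor, and the series asks by what route its loss helps to turn fibroblasts into cells that resemble cardiomyocytes. The titles name no reprogramming factor, so the values are taken here to describe fibroblasts and not reprogrammed cells. The labels do not state how many hairpins were used or whether the replicates were separate cultures, so p-values measure only the spread between these libraries, which may be technical.

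In a heart muscle cell, an action potential opens L-type calcium channels in the plasma membrane, and the calcium that enters triggers release of more calcium from the sarcoplasmic reticulum. A pump returns calcium to this store and an exchanger expels the rest across the plasma membrane, while gap junctions built of connexins pass the current to the neighbouring cell. Fibroblasts do not contract, but they use a pump of the same kind for calcium storage in the endoplasmic reticulum, and they form gap junctions.

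The libraries held 34068241 and 35111013 counts under shNT and 34246969 and 34813598 under shNr4a3. Nr4a3 itself had 60 and 29 counts under shNT against 4 and 8 under shNr4a3 (log2 fold change -2.98 ± 0.67, SE; adjusted p = 3.22e-04, edgeR). All 12 fibroblast markers listed for this check were found, 5 higher and 6 lower in shNr4a3. Their summed level was 37688 and 34121 normalised CPM in shNT and 28461 and 28287 in shNr4a3, where normalised CPM is a gene's count relative to the library size after scaling between libraries. Of 17 cardiomyocyte markers 8 were not among the listed genes, including Myh7, Actc1, Actn2, Myl2 and Pln. The 9 found summed to 1120 and 1060 normalised CPM in shNT and 526 and 556 in shNr4a3. Of these 9, 3 were lower and 0 higher, with a median log2 fold change of -0.30.

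Among the 9 genes, 4 were higher in shNr4a3 (Cacna1c, Slc8a1, Gja1 and Asph), 3 were lower (Kcnj5, Jph2 and Camk2d) and 2 did not pass the test (Atp2a2 and Gjc1). The test was edgeR's quasi-likelihood test over 13160 genes, with a Benjamini-Hochberg adjusted p under 0.05 as threshold. Of all tested genes 55.5% passed it, 27.6% as higher and 27.9% as lower, so a call by itself does not set a gene apart in this comparison. Changes ran from a 5.26-fold fall in Kcnj5 to a 1.76-fold rise in Cacna1c. The median log2 fold change of the 9 genes was 0.00, as it was over all tested genes. In 8 of the 9 genes, all but Atp2a2, both shNr4a3 libraries lay on one side of both shNT libraries, against 77.2% of tested genes.

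**Figure D1:**
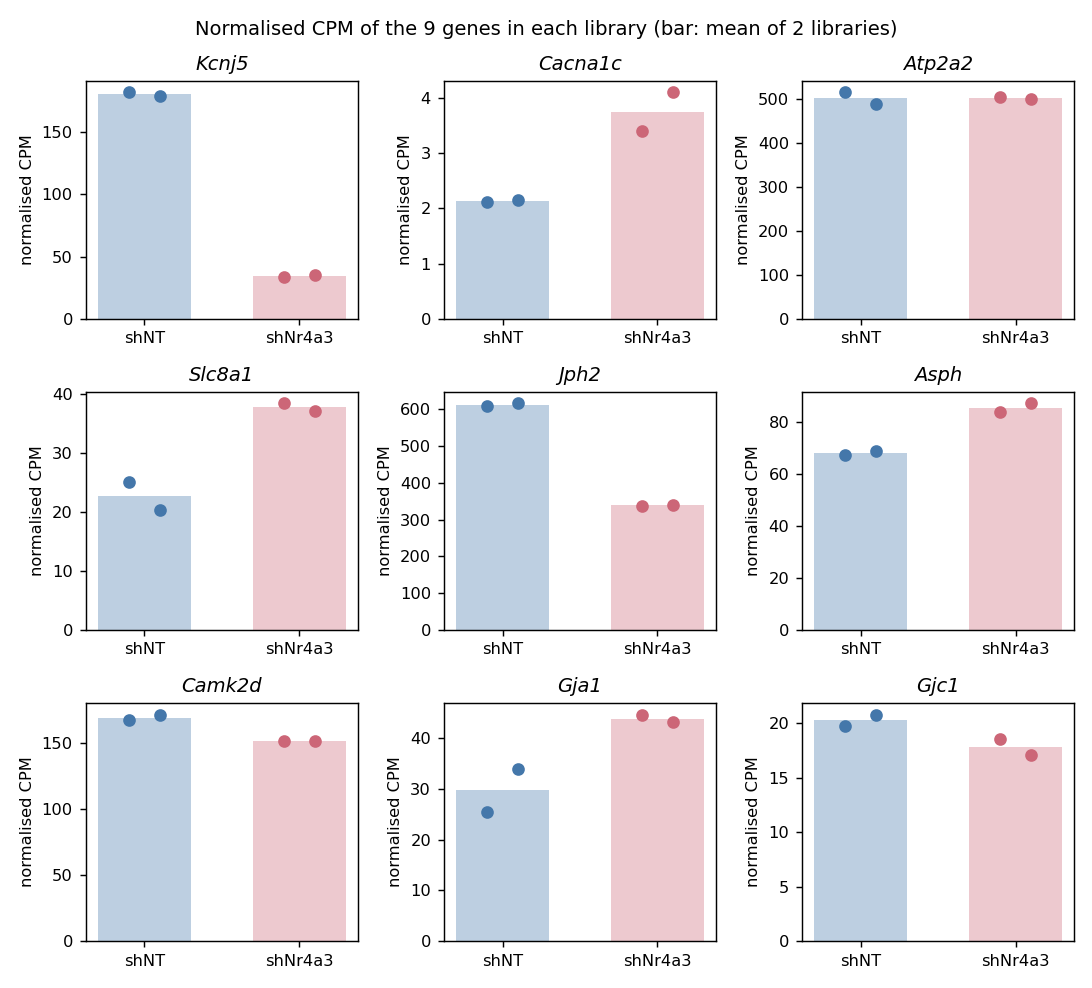
Normalised CPM (vertical axes, each starting at 0) of the 9 genes in each library; points are single libraries and bars are means of the 2 libraries of a group. Kcnj5 lies at 179 and 182 in shNT and at 33.6 and 35.2 in shNr4a3, whereas the libraries of the groups overlap for Atp2a2.

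The genes sit at these places in GRCm38, from the GENCODE M21 annotation. Kcnj5 lies on chromosome 9 (32314707 to 32344350, minus strand), Jph2 on chromosome 2 (163336242 to 163397993, minus), Slc8a1 on chromosome 17 (81373105 to 81738377, minus) and Gja1 on chromosome 10 (56377330 to 56402513, plus). Cacna1c lies on chromosome 6 (118587240 to 119196418, minus), Atp2a2 on chromosome 5 (122453513 to 122502225, minus), Asph on chromosome 4 (9448069 to 9669344, minus), Camk2d on chromosome 3 (126596302 to 126846326, plus) and Gjc1 on chromosome 11 (102799579 to 102819700, minus). None of the 9 shares exon bases with another gene on its own strand.

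The upstream sequence of the members with the largest falls and of 2 that rose is shown because the targeted receptor family binds DNA as a monomer at the element AAAGGTCA, known as NBRE. RefSeq start sites on GRCm38.p6 gave windows of 300 bases, from 250 before to 50 after each start, for 6 of the 9 genes; Atp2a2, Asph and Gjc1 had no entry. The element, read on both strands (TGACCTTT on the other), was found for 1 of these 6 genes, Jph2, and in 1.7% of the 27025 genes with a window. The cAMP response element TGACGTCA, the same on both strands, was found in 0 of the 6 and in 2.03% of genes. Such a match is a description of letters and not evidence of binding. In Jph2 the match begins 56 bases before the start listed first and reads on the strand opposite to the gene. The 250 bases before the start are given 5′ to 3′ on the strand of each gene, with the NBRE match in capitals; they span chr9:32344345-32344594 for Kcnj5, chr2:163397994-163398243 for Jph2, chr17:81738388-81738637 for Slc8a1 and chr10:56377050-56377299 for Gja1.
Kcnj5: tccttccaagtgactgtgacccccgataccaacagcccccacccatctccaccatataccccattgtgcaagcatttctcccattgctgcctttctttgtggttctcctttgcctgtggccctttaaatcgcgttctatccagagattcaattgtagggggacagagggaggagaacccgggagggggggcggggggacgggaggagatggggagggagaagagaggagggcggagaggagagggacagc
Jph2: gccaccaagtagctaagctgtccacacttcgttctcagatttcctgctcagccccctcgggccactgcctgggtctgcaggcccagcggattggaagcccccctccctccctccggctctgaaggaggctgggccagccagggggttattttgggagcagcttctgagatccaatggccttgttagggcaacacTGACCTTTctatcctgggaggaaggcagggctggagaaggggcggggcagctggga
Slc8a1: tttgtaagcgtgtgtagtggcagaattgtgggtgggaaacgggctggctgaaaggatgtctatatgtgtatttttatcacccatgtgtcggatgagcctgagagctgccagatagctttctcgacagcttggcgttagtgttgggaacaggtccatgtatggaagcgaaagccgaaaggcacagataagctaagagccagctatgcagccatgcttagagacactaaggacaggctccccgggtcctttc
Gja1: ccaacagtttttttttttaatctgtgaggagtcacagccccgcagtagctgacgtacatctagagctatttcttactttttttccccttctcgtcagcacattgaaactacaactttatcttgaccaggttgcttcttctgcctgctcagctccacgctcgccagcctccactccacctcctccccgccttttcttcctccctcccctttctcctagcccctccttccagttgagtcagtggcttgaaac

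Of the ion channels, Kcnj5 had the largest change of the 9 genes. It encodes Kir3.4 (GIRK4), a subunit of the potassium channel that acetylcholine opens in atrial and nodal cells through G protein beta-gamma subunits. Kcnj5 had 5938 and 6083 counts under shNT and 1193 and 1276 under shNr4a3. The levels were 181 ± 2.0 normalised CPM (SD, n = 2) in shNT and 34.4 ± 1.1 in shNr4a3, with no overlap between groups. The log2 fold change was -2.39 ± 0.07 (SE; adjusted p = 3.85e-23, edgeR), and 10 of the 13160 tested genes had a smaller p. Kcnj3, which encodes the usual partner subunit GIRK1, was not among the listed genes.

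Another inward rectifier potassium channel gene moved the other way. Kcnj15, which encodes Kir4.2, had 2943 and 2751 counts under shNT and 10282 and 10273 under shNr4a3 (log2 fold change 1.74 ± 0.06, SE; adjusted p = 1.27e-20, edgeR). Kcnj5 made up 69.7% and 70.7% of the summed level of the 5 listed Kcnj genes per kilobase of exon in shNT, and 12.7% and 13.3% in shNr4a3. Kcnj15 made up 25.6% and 23.7% in shNT and 80.9% and 79.7% in shNr4a3. The leading gene of the family thus differed between the groups. The family sum was 55.8 and 54.2 normalised CPM per kilobase in shNT and 56.6 and 56.3 in shNr4a3. With the longest coding transcript as length, the sum was 57.3 and 55.5 in shNT against 61.5 and 61.1 in shNr4a3. The size of the difference in the sum thus depends on the length taken. Kcnj4 and Kcnj2 are named after their values were seen. Kcnj4 was higher, with a log2 difference of 0.57 ± 0.19 (edgeR, adjusted p = 0.0130), and Kcnj2 was lower at 18 and 35 counts against 13 and 2 (adjusted p = 0.0305, edgeR).

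Summed markers of most other cell types were lower in shNr4a3, as was the fibroblast sum given above, and the macrophage sum was higher. Of all tested genes 27.9% were lower, and of the 12 fibroblast markers 6 were lower and 5 higher. Summed mural markers (smooth muscle and pericyte) were 1685 and 1493 normalised CPM in shNT against 943 and 962 in shNr4a3, with 8 of 10 tested lower. Endothelial markers summed to 993 and 889 against 530 and 534, with 13 of 15 lower, and mesothelial markers to 821 and 803 against 263 and 263, with 12 of 13 lower. Of the cardiomyocyte markers 3 of 9 were lower and 0 higher. Of 5 tested macrophage markers 3 were lower and 1, Lyz2, was higher, and the list summed to 60.7 and 61.6 against 100 and 99.3. Glial markers, at low levels, summed to 9.88 and 8.20 against 3.49 and 4.27, with 3 of 6 tested lower and 0 higher. None of the markers found in these lists was at 0 in any library. In bulk RNA, fewer cells of a type and less RNA per cell cannot be told apart, and the part of these cells in the changes of the 9 genes was not tested.

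Cacna1c, which encodes the pore subunit of the L-type calcium channel Cav1.2, was the least abundant of the 9 genes. It had 69 and 73 counts under shNT and 121 and 149 under shNr4a3. The groups did not overlap, at 2.13 ± 0.025 normalised CPM (SD, n = 2) in shNT and 3.76 ± 0.50 in shNr4a3. Its log2 fold change was 0.81 with a 95% interval from 0.24 to 1.39 (adjusted p = 0.0141, edgeR). The call was lost without shNr4a3 replicate 2, the library with the higher level (0.67, adjusted p = 0.147, edgeR). Wherever a library is left out, its group keeps 1 library, which is assumed to vary like the pair of the other group. Among the other pore subunits, Cacna1g of the T-type channel was lower at 140 and 111 counts against 42 and 58 (log2 fold change -1.44 ± 0.32, SE; adjusted p = 2.57e-04, edgeR). Cacna1d, of the second L-type channel of the heart, had 49 and 43 counts against 35 and 14 and did not pass (adjusted p = 0.0968, edgeR), and without shNr4a3 replicate 1 its log2 fold change was -1.83 (adjusted p = 0.0270, edgeR), with the spread taken from the shNT pair alone. Cacna1h was not among the listed genes. Cacna1b, at 49 and 30 counts against 11 and 0, and Cacna1a, at 82 and 84 against 59 and 42, were named after their values were seen. Both were lower (adjusted p = 0.00175 and adjusted p = 0.0494, edgeR) and enter the summed level of the 5 listed pore subunits. Cacna1c made up 9.85% and 12.2% of the summed pore subunit level per kilobase in shNT and 30.2% and 40.1% in shNr4a3, on a family sum that was itself lower (1.01 and 0.831 against 0.532 and 0.484 normalised CPM per kilobase). Of the auxiliary subunits that traffic the channel, Cacnb1 (0.69 ± 0.14) and Cacna2d1 (0.26 ± 0.07) were higher on the log2 scale, and Cacnb2, Cacnb3 and Cacnb4 did not pass. Cacna2d1 lost its call without shNr4a3 replicate 2 (0.23, adjusted p = 0.0904), and Cacnb3, at -0.17, passed once shNT replicate 2 was left out (edgeR, adjusted p = 0.0195).

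Of the calcium transporters, the plasma membrane exchanger rose, and the store pump did not pass the test. Atp2a2 encodes SERCA2, which pumps calcium into the sarcoplasmic or endoplasmic reticulum; counts per gene do not separate its transcripts. Atp2a2 had 16786 and 16554 counts under shNT and 17900 and 18145 under shNr4a3. These are 501 ± 19 normalised CPM (SD, n = 2) against 502 ± 2.3. The log2 fold change was 0.00 with a 95% interval from -0.11 to 0.11 (adjusted p = 0.986, edgeR), and its sign turned between scalings and left-out libraries, from -0.03 to 0.12. The related pump gene Atp2a3, which encodes SERCA3, was lower at 128 and 158 counts against 19 and 16 (log2 fold change -3.13 ± 0.36, SE; adjusted p = 1.06e-08, edgeR). Atp2a2 nevertheless carried 98.9% to 99.8% of the summed SERCA level per kilobase in each library. Atp2a1, the skeletal muscle form, had 15 and 4 counts against 10 and 16 and did not pass.

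Slc8a1 encodes the sodium-calcium exchanger NCX1, which expels calcium in exchange for sodium. It had 815 and 690 counts under shNT and 1365 and 1348 under shNr4a3. The level rose from 22.7 ± 3.3 normalised CPM (SD, n = 2) to 37.8 ± 0.87, with both shNr4a3 libraries above both shNT libraries. The log2 fold change was 0.74 ± 0.10 (SE; adjusted p = 3.55e-07, edgeR), and it passed in 14 of 14 alternatives. The other exchanger genes of its family, Slc8a2 and Slc8a3, were not among the listed genes. The ratio of Slc8a1 to Atp2a2 counts, which does not depend on how libraries are scaled, was 0.0486 and 0.0417 in shNT and 0.0763 and 0.0743 in shNr4a3, 1.67-fold higher. The exact two-sided permutation p of this ratio was 0.333, the smallest that 2 against 2 libraries allow.

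**Figure D2:**
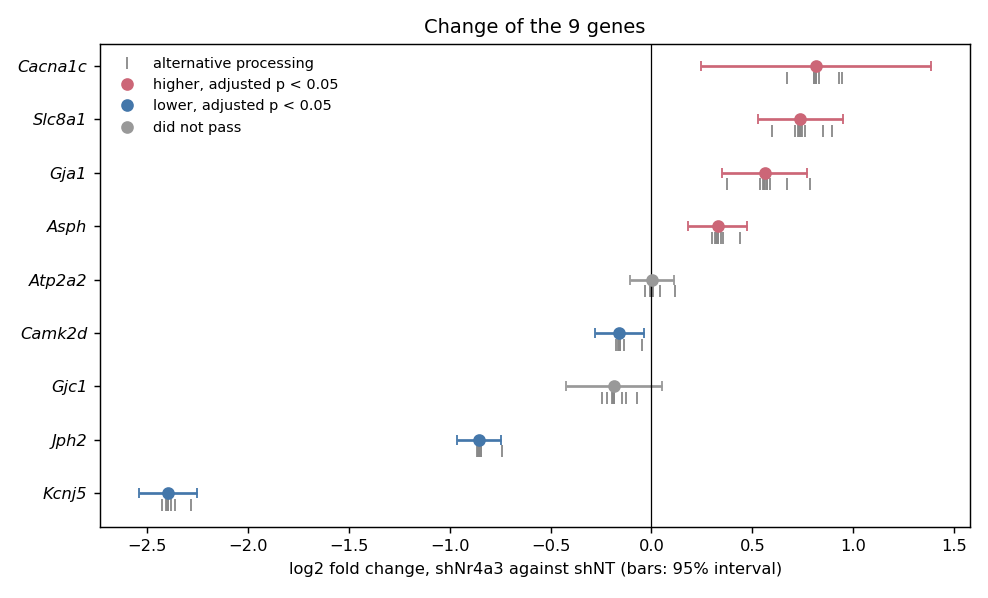
Log2 fold change (horizontal axis) of the 9 genes, shNr4a3 against shNT; points are the reported values, bars their 95% intervals, and grey ticks the values under 14 alternative ways of processing. Kcnj5 at -2.39 and Jph2 at -0.85 lie apart from the rest, and the interval of Atp2a2 spans 0.

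Of the genes linked to store membrane junctions, Jph2 fell and Asph rose. Jph2 encodes junctophilin 2, which holds the sarcoplasmic reticulum close to the plasma membrane in heart muscle. It had 19908 and 20906 counts under shNT and 11997 and 12373 under shNr4a3. The level fell from 613 ± 4.0 normalised CPM (SD, n = 2) to 339 ± 2.6, a 1.81-fold difference with no overlap. The log2 fold change was -0.85 ± 0.05 (SE; adjusted p = 6.27e-15, edgeR). Jph2 carried 99.4% to 99.5% of the summed junctophilin level per kilobase in each library. Mural markers summed to 1685 and 1493 normalised CPM in shNT and 943 and 962 in shNr4a3, as given above, and their part in the fall of Jph2 was not tested. Jph1 had 52 and 96 counts against 48 and 64 and did not pass, and Jph4, named after its values were seen, was lower at 93 and 54 against 42 and 26 (adjusted p = 0.0163, edgeR).

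Asph gives rise to an aspartyl and asparaginyl hydroxylase and, from other promoters and exons, to the store membrane proteins junctin and junctate; counts per gene do not separate them. Asph had 2190 and 2329 counts under shNT and 2971 and 3153 under shNr4a3. The level rose from 67.9 ± 1.1 normalised CPM (SD, n = 2) to 85.3 ± 2.4, a log2 fold change of 0.33 ± 0.07 (SE; adjusted p = 2.65e-04, edgeR). The difference was 1.26-fold and the groups did not overlap. Asph shares 2302 exon bases with Clvs1 on the opposite strand, and Clvs1 had 16, 18, 7 and 18 counts in the 4 libraries. Of the partners of junctin in the calcium release unit, Casq2, the calcium buffer calsequestrin 2, was lower (-0.30 ± 0.09; adjusted p = 0.00347, edgeR). It no longer passed when scaled by library totals alone (-0.19) or when shNr4a3 replicate 1 was left out (-0.27). Trdn, which encodes triadin, had 13 and 11 counts against 18 and 37, and Ryr2, the cardiac calcium release channel, had 14 and 12 against 34 and 12; neither passed. Pln, which encodes the SERCA inhibitor phospholamban, was not among the listed genes.

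Camk2d, the delta form of calcium/calmodulin-dependent kinase II and the main cardiac one, was lower by a small amount. It had 5442 and 5812 counts under shNT and 5389 and 5495 under shNr4a3, or 169 ± 3.1 against 152 ± 0.071 normalised CPM (SD, n = 2). The log2 fold change was -0.16 ± 0.06 (SE; adjusted p = 0.0261, edgeR). The call was lost with library totals only (-0.05) and when either shNr4a3 library was left out (-0.16 each time; adjusted p = 0.229 without the first and adjusted p = 0.233 without the second, edgeR). The gamma form changed far more: Camk2g had 3930 and 3852 counts under shNT against 1300 and 1308 under shNr4a3 (log2 fold change -1.69 ± 0.07, SE; adjusted p = 1.47e-18, edgeR). The share of Camk2d in the summed kinase II level per kilobase was 26.5% and 28.3% in shNT and 48.3% and 47.5% in shNr4a3. With the longest coding transcript as length the share was 46.1% and 48.4% against 68.9% and 68.4%, so its size depends on the length taken while its direction does not. The family sum was 28.0 and 26.9 normalised CPM per kilobase in shNT and 14.0 and 14.2 in shNr4a3. With the longest coding transcript as length, the sum was 65.5 and 64.1 in shNT against 39.8 and 40.1 in shNr4a3. The size of the fall in the sum thus depends on the length taken while its direction does not. Camk2b was higher at 47 and 27 counts against 104 and 90 (adjusted p = 0.00453, edgeR), but it no longer passed when shNT replicate 2 was left out (0.91, adjusted p = 0.0511). Camk2a did not pass.

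**Figure D3:**
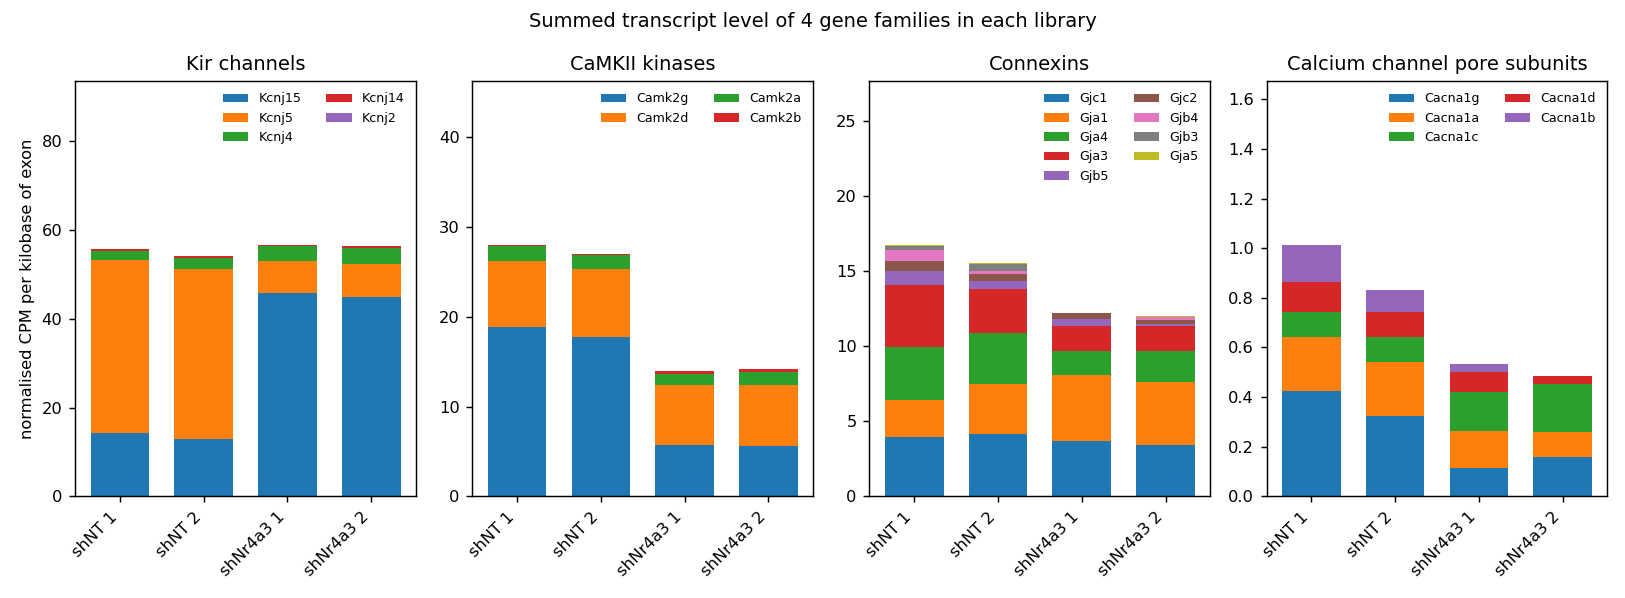
Normalised CPM per kilobase of annotated exon (vertical axes, starting at 0) in each of the 4 libraries, stacked by gene, for inward rectifier potassium channels (Kir), kinase II genes, connexins and calcium channel pore subunits. With this length the Kir sums lie between 54.2 and 56.6, with Kcnj5 the larger part in shNT and Kcnj15 in shNr4a3. The kinase II sums are 28.0 and 26.9 in shNT and 14.0 and 14.2 in shNr4a3.

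Connexin 43 rose and connexin 45 did not pass. Gja1 encodes connexin 43, the main gap junction protein of the ventricle and of cardiac fibroblasts. It had 832 and 1151 counts under shNT and 1587 and 1563 under shNr4a3. The shNT libraries differed from each other, at 25.5 and 33.9 normalised CPM, and both lay below the shNr4a3 libraries at 44.6 and 43.1. The log2 fold change was 0.56 ± 0.10 (SE; adjusted p = 3.67e-05, edgeR). Its size rested on which shNT library was kept: it was 0.37 without shNT replicate 1 and 0.78 without shNT replicate 2, where the spread came from the shNr4a3 pair alone. Gjc1, which encodes connexin 45 of the conduction system, had 644 and 706 counts under shNT and 661 and 620 under shNr4a3. Its level was 20.3 ± 0.75 normalised CPM (SD, n = 2) against 17.8 ± 1.1, and its log2 fold change of -0.19 had a 95% interval from -0.42 to 0.05 (adjusted p = 0.182, edgeR). The groups did not overlap for Gjc1 on this scale.

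The ratio of Gja1 to Gjc1 counts was 1.29 and 1.63 in shNT and 2.40 and 2.52 in shNr4a3, 1.70-fold higher (exact two-sided permutation p = 0.333, the smallest possible here). Gja1 made up 14.9% and 21.3% of the summed level of the 9 listed connexin genes per kilobase in shNT, and 35.6% and 35.1% in shNr4a3. With the longest coding transcript as length these shares were 29.4% and 38.0% against 53.2% and 53.2%. Gja3 (-1.07) and Gja4 (-0.91), named after their values were seen, were lower on the log2 scale (adjusted p = 1.49e-05 and adjusted p = 0.00109, edgeR), and Gja4 also stands among the endothelial markers used here. The connexin sum was 16.8 and 15.6 normalised CPM per kilobase in shNT against 12.2 and 12.0 in shNr4a3. With the longest coding transcript as length, the sum was 27.3 and 28.0 in shNT against 26.4 and 25.4 in shNr4a3, so the size of the difference in the sum depends on the length taken.

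Levels of different genes could not be compared by the deposited FPKM. The gene lengths that these values imply were whole numbers of bases for 100% of genes, within 0.01 bases, but they did not follow annotated length: Spearman's rho across the 12705 genes found in GENCODE M21 was -0.006, a value across genes, which are not independent replicates. Cacna1c was given 843 bases, against 21191 annotated exon bases and a longest coding transcript of 13162. Slc8a1 was given 1611 bases against 18807, while Kcnj5 was given 9602 against 4685. Such a length is the same in every library, so it does not touch a comparison of a gene between groups. Per kilobase of annotated exon, Jph2 ranked first of the 9 genes in shNT (143 and 145 normalised CPM per kilobase), followed by Atp2a2 (84.7 and 80.3) and Kcnj5 (38.9 and 38.3). In shNr4a3 Atp2a2 came first (82.8 and 82.3) and Jph2 second (79.3 and 80.2). These last levels lie close together, and with the longest coding transcript as length they were 112 and 112 against 80.1 and 81.0. Cacna1c was last in each library under both lengths, at 0.0999 to 0.194 per kilobase of exon. Slc8a1 was next to last in each library under both lengths, at 1.33 and 1.08 per kilobase of exon in shNT and 2.04 and 1.98 in shNr4a3. Kcnj5 ranked 3 in each library per kilobase of exon, but with the longest coding transcript it ranked 7 and 6 of the 9 in the shNr4a3 libraries. The order of Asph, Gja1 and Gjc1 among themselves changed with the length taken in each library but shNT replicate 1.

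**Figure D4:**
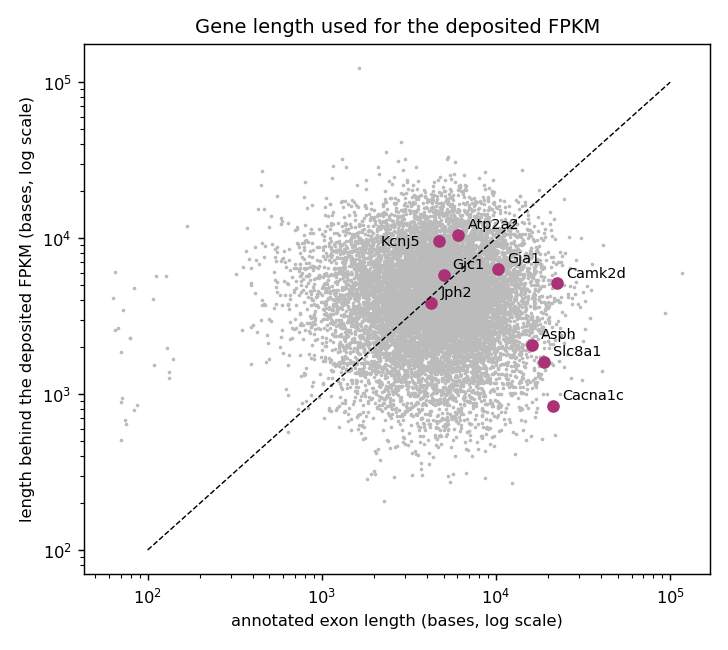
Gene length implied by the deposited FPKM (vertical axis, bases, log scale) against annotated exon length (horizontal axis, bases, log scale) for 12705 genes in grey, with the 9 genes as labelled points; the dashed line marks equal lengths. The cloud shows no slope (Spearman's rho -0.006 across genes), and Cacna1c, at 843 against 21191 bases, lies farthest below the line of the labelled genes.

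Genes that work with the 9 were counted in 8 lists, without a set test, against the 55.5% of all tested genes called and their median of 0.00. Of 25 tested genes of calcium stores and membrane junctions, 2 were higher and 9 lower, with a median log2 fold change of -0.09. Itpr3, a receptor of the messenger inositol trisphosphate, fell from 1331 and 1275 counts to 234 and 184 (log2 fold change -2.75 ± 0.13, SE). Calr, the calcium buffer calreticulin (-0.41), and Bin1, which shapes membrane tubules (-0.58), were lower, and Sri, which encodes the calcium-binding protein sorcin (0.59), was higher. Of 13 pumps, exchangers and uniporter genes 5 were higher and 3 lower, with a median of 0.09. Besides Atp2a3, Atp2b4, a plasma membrane calcium pump, was lower (-0.68), while the mitochondrial uniporter genes Smdt1 (0.62) and Micu3 (0.75) were higher.

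Of 21 calcium-permeable channel genes and their regulators 5 were higher and 10 lower, with a median of -0.40. Rem1, a small GTPase that inhibits voltage-gated calcium channels, fell from 2366 and 2314 counts to 709 and 758 (log2 fold change -1.78 ± 0.09, SE). Trpc6 (-1.41) and Pkd1 (-0.40) were lower as well, and Trpc1 (1.13) was higher. Of 23 potassium channel and G protein genes 7 were higher and 8 lower, with a median of -0.29. Kcnk6 fell from 310 and 283 counts to 19 and 24, and Gnb1, which encodes a G protein beta subunit of the kind that opens Kir3 channels, was lower (-0.71). Rgs4, which shortens G protein signals, rose from 89 and 80 counts to 531 and 627.

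Of 25 connexin and intercalated disc genes 5 were higher and 11 lower, with a median of -0.49. Nedd4, a ubiquitin ligase that can act on connexin 43, fell from 51366 and 52160 counts to 20661 and 20270 (log2 fold change -1.45 ± 0.05, SE). The junction genes Ctnnb1, beta-catenin (-1.31), Jup, plakoglobin (-1.19), and Cxadr, a receptor of the disc (-1.73), were lower too. Of 29 calmodulin, kinase, calcineurin and NFAT genes 10 were higher and 15 lower, with a median of -0.19. Camk4, a kinase of the nucleus, rose from 545 and 556 counts to 2389 and 2097 (1.92), while Mef2a, a transcription factor under calcium-dependent control (-1.16), and Rcan2, a calcineurin regulator (-1.40), were lower besides Camk2g.

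Of 22 cAMP and phosphatase genes 4 were higher and 8 lower, with a median of -0.03. Akap6, a scaffold for protein kinase A near calcium stores, fell from 5912 and 5724 counts to 1644 and 1694 (log2 fold change -1.91 ± 0.07, SE), and Prkar2a (-0.73), Adcy6 (-0.60) and Pde4a (-0.93) were lower. Of 11 dioxygenase genes related in chemistry to Asph 3 were higher and 4 lower, with a median of -0.11: the collagen prolyl hydroxylase genes P4ha3 (1.69) and P4ha1 (0.52) were higher, and P4ha2 (-0.40) and Egln3, an oxygen sensor (-0.95), were lower. The largest adjusted p among the genes named from these lists was 3.55e-05, that of P4ha2 (edgeR).

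**Figure D5:**
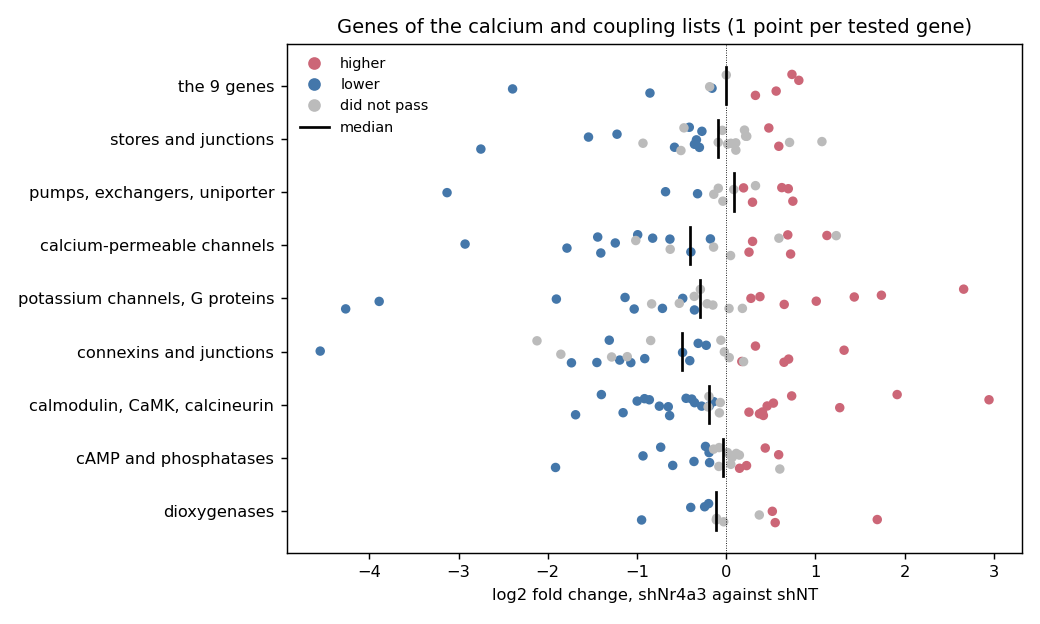
Log2 fold change (horizontal axis) of each tested gene in the 8 lists and of the 9 genes; colours give the call at an adjusted p under 0.05 and black bars the medians. Each list holds genes called in both directions, and the medians lie between -0.49 and 0.09.

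The authors' deposited table tests the same contrast against an absolute log2 fold change of 0.5. There, in the authors' deposited table, Kcnj5 stood at -2.40 on the log2 scale (adjusted p = 7.83e-134), marked as down. In the authors' deposited table Jph2 stood at -0.86 (adjusted p = 2.18e-10) with no mark, and no marked gene had an absolute log2 fold change under 1. In the same authors' deposited table Slc8a1 had an adjusted p of 0.233 and Cacna1c of 0.799, and for each of the other 5 genes it was 1.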

How the data were processed

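RNA-seq was analysed in 4 libraries of mouse cardiac fibroblasts, 2 per group by title. The labels' protocols describe total RNA with ribosomal RNA removed and stranded paired-end libraries. The submitters' processing notes name Trimmomatic 0.36, Subread 1.5.1, featureCounts, SAMtools and the build mm10; aligner and strand setting are not given. The deposited counts are whole numbers per gene, and the lowest mean in the table is 10.25. The deposited FPKM values, made by the authors with their own gene lengths, served only to recover those lengths. The log2 fold changes and p-values deposited are the authors' own. The authors also deposited a score, the log2 fold change divided by its error, and a mean signal, the average count after scaling by size factors; neither was used.

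Counts were tested by the robust quasi-likelihood method of edgeR 4.0.16 (R 4.3.3), with TMM factors and group as the sole term. Its filterByExpr step removed 32 genes, leaving 13160, and Benjamini-Hochberg adjustment ran over these. SE is the log2 fold change divided by the square root of F. Levels between genes and family shares were meant to use the deposited FPKM; normalised CPM per kilobase of GENCODE M21 exon was used instead, because the FPKM lengths did not follow the annotation, and the junctophilin and Kir families were added after the data were seen. Replicates differed by more than sampling noise (chi-square per gene 11.1 in shNT and 3.98 in shNr4a3). The common biological coefficient of variation was 6.57%. The fit was tested on simulated data. Alternatives were DESeq2 1.42.0, limma-voom (limma 3.58.1), other scalings and filters, a replicate block, left-out libraries and a minimum fold. The 9 genes and all lists were chosen with earlier results of these data known. Named genes are the 9, Nr4a3, a set of family partners and the 4 genes of smallest p in each of 8 lists; others are marked in the text. The values of some listed genes are not reported here.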

Additional observations from a re-analysis of the deposited data

How the results depend on the processing

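The counts of 4 higher and 3 lower among the 9 genes were the same with median-of-ratios or upper-quartile factors, DESeq2, limma-voom, no filter, a mean CPM of at least 1, and without the 20 most abundant and the mitochondrial genes. When a library was left out, 3 to 4 were higher and 2 to 3 lower, and the number of all genes called ran from 5566 to 7606. Against a log2 fold change of 0.5, 1 of the 9 was higher (Slc8a1) and 2 lower, and 2101 of all genes passed, 750 higher and 1351 lower, where 7309 passed otherwise; that test asks for a larger change. Library totals alone moved the median of all genes from 0.004 to 0.117 on the log2 scale and the split of calls from 49.7% to 62.4% higher, and Camk2d then lost its call. With the replicate number as a block 4 were higher and 3 lower, and 7151 of all genes were called; the block changed no call of the 9. Same-numbered libraries did not deviate together (correlation -0.038 across genes), so the numbers are not taken as pairs. Among values of single genes under alternatives, 753 kept their side of the threshold, 24 lost the call, 2 gained it and 0 of those called reversed. Cacna1c had the fewest counts of the 9, at 69 to 149, and the interval of its change ran from 0.24 to 1.39. A fit without a library rests on the spread of the other group's pair.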

Other observations

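Genes of mitochondrial calcium uptake, counted after their values were seen, were mostly higher in shNr4a3. Besides Smdt1 and Micu3, Mcu, the pore of the uniporter (0.30), Mcub, its inhibitory relative (0.70), and Micu2, a gatekeeper (0.19), were higher on the log2 scale, while Letm1 (0.09) did not pass (edgeR). Slc8b1, the mitochondrial sodium-calcium exchanger gene, was lower (-0.32). Calcineurin and calmodulin genes, also picked after their values were seen, moved in both directions. Among calcineurin genes the catalytic subunit gene Ppp3ca was lower (-0.39), and Ppp3cb (0.26), Ppp3cc (0.73) and the regulatory Ppp3r1 (0.37) were higher. Nfatc3 (-0.63) and Nfatc4 (-0.65), targets of calcineurin, were lower. Calm2, a calmodulin gene, was higher (0.53), and Calm3 did not pass (-0.08).

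The order of the 9 genes changes when the deposited FPKM is read as a level. In shNT the deposited FPKM of Slc8a1 was 14.8 and 12.2, above Gja1 at 3.84 and 5.15, whereas per kilobase of annotated exon Slc8a1 lay at 1.33 and 1.08 and Gja1 at 2.49 and 3.31 normalised CPM. For Camk2d and Jph2 the deposited order held, with Jph2 above Camk2d on both scales in each library. The deposited lengths exceeded the annotated span of the whole gene, introns included, for 10.8% of genes, and lay within 1.5-fold of the annotated exon length for 32.3%.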
